A study of Mus musculus with 2 samples.

Results

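Chemokines are small secreted proteins, and their receptors are G protein–coupled receptors on the cells that follow them. The members described here were all genes with a Ccl, Cxcl, Ccr or Cxcr symbol and a number, together with Xcl1, Xcr1, Cx3cl1, Cx3cr1 and the atypical receptors Ackr1 to Ackr4. They filled 66 of the 32285 genes listed in each library, 44 of them ligands and 22 receptors. The rule used the symbols and no measured value, though it was set with earlier results of these data known. Expression was measured by droplet single-cell RNA sequencing of mouse liver in 2 libraries, which the study made to ask which liver cell populations and which signals between cells differ when miR-33 is missing from hepatocytes during steatohepatitis (MASH).

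The WT library came from wild-type littermates. The HKO library came from mice with a Cre recombinase driven by the albumin promoter (genotype AlbCRE in the labels), bred with mice whose miR-33 gene is flanked by loxP sites, so the deletion was aimed at hepatocytes and not at the immune or endothelial cells in which most members were found. Whether the WT littermates carried loxP sites is not given in the sources used here. All mice were males and received CD-HFD, a high-fat diet without added choline, for 6 months from 8 weeks of age. Each library was a pool of 3 livers, from which hepatocytes and sorted live non-parenchymal cells were prepared apart and then combined 1:1. There was thus 1 library per genotype and no replicate, and no test between the genotypes was possible. All intervals below are at 95%, are exact, and cover counting error only. They hold neither the spread between mice nor that between pools.

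The WT library held 130451427 unique molecular identifiers (UMIs, 1 per captured RNA molecule) in 30078 barcodes and the HKO library 52563185 UMIs in 20000 barcodes, with medians of 2658 and 1130 UMIs per barcode. No listed gene is that of miR-33, and the counts therefore cannot show the deletion itself. Barcodes were put into classes by marker genes, none of which was a member. These were T-like (149 WT and 542 HKO barcodes), NK-like (53 and 143), B and plasma-like (33 and 167), macrophage-like (97 and 227), monocyte and dendritic-like (36 and 95), endothelial-like (106 and 183), neutrophil-like (3 and 29) and plasmacytoid dendritic-like (3 and 19). In 5 further classes, each of 7 to 13 WT and 23 to 50 HKO barcodes, the same barcodes held markers of several cell types, and these classes are called mixed. Classes with a single name held markers of others as well, at lower levels that are given where they touch a result. No cluster among the rest held the 3 markers of another cell type that a class needed, although 2 clusters held single ones (Hbb-bs of erythroid cells in 1, Fn1 and Tcf4 in the other). The deep ones among them made up the hepatocyte-like class (1909 and 3700), and the shallow ones the class of free RNA depth (20169 and 10308). Hepatocyte markers did not separate these last 2 classes. Alb, the albumin gene, was at 36380 and 34767 counts per 1000000 UMIs (CPM) in them in WT and at 27507 and 30184 CPM in HKO. Alb was measured in every class, and outside hepatocytes it is taken here as RNA that hepatocytes set free. No test for empty droplets was run. Depth alone set the class of free RNA depth apart from the hepatocyte-like class, and whether it also held shallow hepatocytes was not tested. Scaled by Alb, free RNA in this sense accounted for 48.7% of the UMIs of T and NK-like barcodes in WT and 30.2% in HKO. In macrophage-like barcodes it accounted for 59.2% and 22.6%. A larger share of free RNA lowers the CPM of every gene that the cells themselves make, so ratios between the libraries are given below as measured and, where it matters, after subtraction of free RNA.

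As background, chemokines are named by the spacing of their first cysteines, and the CC and CXC families sit largely in gene clusters. In the steatotic liver, CCR2 ligands are known to draw monocytes, CXCR2 ligands to draw neutrophils, and CXCR3 and CXCR6 ligands to draw T cells. Atypical receptors bind chemokines without the usual G protein signal and remove them from the tissue. Of the 59 members with a placement in the GRCm38 annotation, 14 lay on chromosome 11, 13 on chromosome 9 and 10 on chromosome 5. Annotated genes overlapped 18 of them, 3 on the same strand (Ackr1, Cx3cr1 and Ccr9).

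MicroRNAs pair with 3′UTRs mainly through bases 2 to 8, the seed. The strand of miR-33 that guides silencing is printed here because its removal is what separates the groups, with the seed in capitals (RefSeq, GRCm38.p6, chr15:82198127-82198147, plus strand).
mmu-miR-33-5p: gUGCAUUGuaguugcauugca
The complement of this seed, CAATGCA, was sought in annotated 3′UTRs. It was found in 6 of the 57 members with an annotated 3′UTR (10.5%) and in 1602 of 21039 genes (7.61%). The 6 windows follow, with the match in capitals and the position of the match.
Ackr3, chr1:90215598-90215604, plus strand: caactgcccagCAATGCAgtttgttacat
Ccl28, chr13:119653352-119653358, plus strand: tcaacctgactCAATGCActtaaccacat
Ccr9, chr9:123781733-123781739, plus strand: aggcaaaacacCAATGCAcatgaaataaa
Cxcl12, chr6:117178245-117178251, plus strand: gctgttagggcCAATGCAtagtctcagca
Cxcl9, chr5:92323488-92323494, minus strand: tcatagctatcCAATGCAcaacagctgtc
Cxcr2, chr1:74161180-74161186, plus strand: aaccactgaacCAATGCAgaactatctac
Of these 6, Cxcl12 and Cxcl9 were the only members with over 1000 UMIs in a library. Their levels in hepatocyte-like barcodes, where the deletion was aimed, are given further on.

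Of the 66 listed members, 11 had no UMI in either library. These were Ccl21a, Ccl21b and Ccl21c with 2 entries each, Ccl26, Ccl27b, 2 of the 3 entries for Ccl27a and 1 of the 2 for Ccl19. The entries that share a symbol are near-identical gene copies, so values for Ccl19 and Ccl27a may miss reads that fitted several copies. A further 6 members had 1 to 9 UMIs (Ccl11, Ccl20, Ccr8, Cxcl3, Cxcl5 and Cxcl15), and 49 had at least 10. The class with the highest CPM over both libraries (top class) could be given for 22 ligands and 16 receptors with at least 10 UMIs in that class. It was the same class in each library alone for 20 of these 38, so placements of the others are loose. These 20 were Ccl5, Ccl6, Ccl22, Ccl27a, Cxcl12, Cxcl13, Cxcl16 and Xcl1 among the ligands and Ccr1, Ccr2, Ccr4, Ccr6, Ccr7, Ccr9, Cxcr2, Cxcr3, Cxcr4, Cxcr5, Cx3cr1 and Xcr1 among the receptors. The 11 members with 10 or more UMIs and no top class were Ackr2, Ackr3, Ccl17, Ccl19, Ccl28, Ccr3, Ccr10, Cx3cl1, Cxcl14, Cxcl17 and Cxcr1.

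The senders were spread over many classes. Macrophage-like barcodes were the top class of 5 ligands (Ccl6, Ccl8, Ccl9, Ccl12 and Ccl24). The mixed classes were the top class of Ccl2, Ccl7, Ccl27a, Cxcl1, Cxcl10, Cxcl12, Cxcl13 and Cxcl16. Neutrophil-like barcodes led for Ccl3, Ccl4 and Cxcl2, though not in WT alone, T-like barcodes for Ccl1, Ccl5 and Ccl25, NK-like barcodes for Xcl1, endothelial-like barcodes for Cxcl9, and monocyte and dendritic-like barcodes for Ccl22. Among the receptors, T-like barcodes led for receptors that included Ccr4 and Cxcr6, NK-like barcodes for Cxcr3, B and plasma-like barcodes for Ccr6, Ccr7 and Cxcr5, and monocyte and dendritic-like barcodes for Ccr2, Cx3cr1 and Xcr1. Neutrophil-like barcodes led for Ccr1, Cxcr2 and Cxcr4, and plasmacytoid dendritic-like barcodes for Ccr9. The neutrophil-like name did not hold with doublets kept, with member genes in the clustering or at the higher clustering resolution, where a cluster of 3 WT and 27 HKO barcodes was named mixed myeloid and neutrophil. The atypical receptors Ackr1 and Ackr4 led in the mixed endothelial and stellate and the hepatocyte-like classes.

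**Figure D1:**
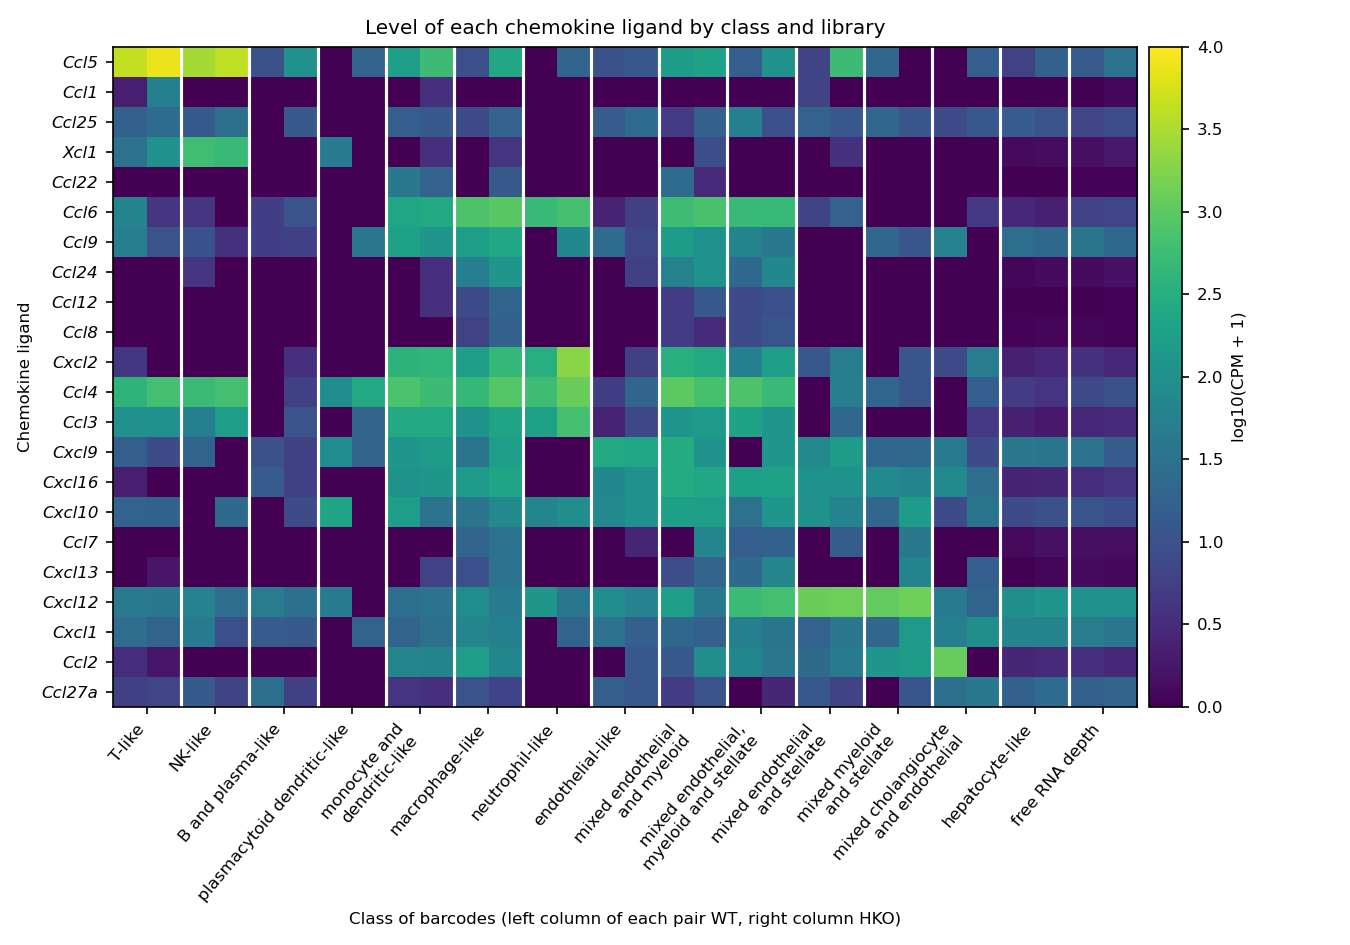
Level of chemokine ligands by class (rows are ligands with a top class, columns are classes, WT and HKO side by side, and color is log10 of CPM plus 1). Ccl5 stands out in the T-like and NK-like columns of both libraries, and Ccl6 in the macrophage-like columns.

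Ccl5, a ligand of CCR1 and CCR3, among others, that effector T and NK cells secrete, had the most UMIs of all members in its top class. In T-like barcodes it was at 4350 CPM in WT (4212 to 4491; 3761 UMIs) and at 7695 CPM in HKO (7548 to 7846; 10303 UMIs). NK-like barcodes held 2934 CPM in WT and 4151 CPM in HKO. Its level was thus higher in HKO in both lymphoid classes, by 1.77-fold (1.70 to 1.84; 1.27 after subtraction of free RNA) in T-like and 1.42-fold (1.30 to 1.54; 1.10 after subtraction) in NK-like barcodes. Over the T and NK-like classes together the ratio was 1.76 (1.70 to 1.82), and it was 1.29 after subtraction of free RNA. Ccl5 UMIs were found in 58.4% of T and NK-like barcodes in WT and 63.9% in HKO, at median depths of 5590 and 2204 UMIs. With every barcode thinned to 1000 UMIs, which left out 3 WT and 16 HKO barcodes of these classes, the shares were 47.2% (40.1 to 54.4) and 57.8% (54.0 to 61.6). Thinned barcodes of free RNA depth, the measure of background, held Ccl5 in 1.27% and 2.10%.

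Most Ccl5 came from a small share of the lymphoid barcodes. Sub-cluster 0, in which Cd8b1 (a CD8 chain), Gzmk (a granzyme) and Pdcd1 (the receptor PD-1) were among the leading genes, held 39 of 202 barcodes in WT and 150 of 685 in HKO. It carried 63.2% of the Ccl5 UMIs of T and NK-like barcodes in WT and 67.0% in HKO. Its Ccl5 level was 10200 CPM in WT against 18800 CPM in HKO, and the ratio was 1.84 (1.77 to 1.92). In sub-cluster 10, led by the NK receptors Ncr1 and Klra7 among others, Ccl5 was at 4820 CPM in WT and 7186 CPM in HKO (1.49, 1.37 to 1.62). This sub-cluster was named NK-like but also held the T markers Cd3d, Cd3e, Cd3g, Cd8a, Trac, Trbc1, Trbc2, Lck and Thy1. Sub-cluster 6, led by Ikzf2, Tigit and Ctla4 among others, had a much lower level of 121 CPM in WT and 400 CPM in HKO (3.31, 2.19 to 5.15). In sub-cluster 19, led by Cd40lg and Slamf1 among others, the libraries did not differ beyond counting error, at 3159 and 3318 CPM (1.05, 0.912 to 1.21). This sub-cluster was small in WT, with 11 barcodes against 103 in HKO. The ratio of Ccl5 as measured was thus not the same in every sub-cluster. Free RNA was not subtracted within sub-clusters, and in NK-like barcodes it accounted for 45.3% of the UMIs in WT and 29.6% in HKO.

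**Figure D2:**
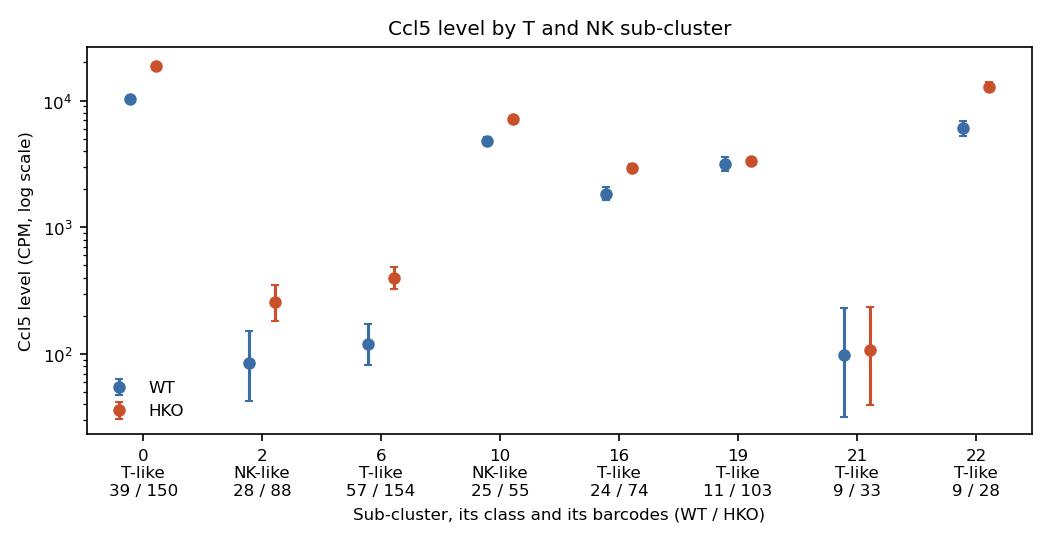
Ccl5 level in each sub-cluster of T and NK-like barcodes (y axis, CPM on a log scale; blue points are WT, red points HKO, and bars their exact 95% intervals; barcodes of each library stand under the axis). Sub-cluster 0 is highest in both libraries, and its HKO point lies above its WT point.

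Among the other lymphoid ligands, Xcl1, which draws cross-presenting dendritic cells through XCR1, was at 589 CPM (190 UMIs) in WT NK-like barcodes and at 507 CPM (177 UMIs) in HKO. The ratio was 0.861 (0.698 to 1.06). In T-like barcodes Xcl1 was instead higher in HKO, at 31.2 CPM in WT and 106 CPM in HKO (3.40, 2.24 to 5.33). Over both classes together it was at 183 and 189 CPM. After subtraction of free RNA the ratio of Xcl1 was 0.669 in NK-like, 2.45 in T-like and 0.760 in both together. The border between NK-like and T-like barcodes was not firm. With doublets kept, a cluster of 12 WT and 26 HKO barcodes, with Klra1, Klra7 and Xcl1 among its leading genes, was named T-like. The NK-like class then held 19 WT and 55 HKO barcodes. Ccl4, a CC ligand that activated lymphoid and myeloid cells secrete, was at 435 CPM in T and NK-like barcodes of WT and at 636 CPM in HKO. In WT 1 barcode held 214 of its 517 UMIs, and without the highest barcode of each library the ratio moved from 1.46 (1.31 to 1.63) to 2.24 (1.97 to 2.56). After subtraction of free RNA it was instead 1.08. Ccl3, a ligand of CCR1, was at 91.8 CPM in WT and 117 CPM in HKO in the same classes, and after subtraction the HKO level was 0.938 of that in WT. Ccl1, a CCR8 ligand, had 69 UMIs in HKO T-like barcodes and 1 in WT, and all 69 lay in 1 barcode. Ccl25, the CCR9 ligand, was at 16.2 and 23.9 CPM in T-like barcodes (1.48, 0.766 to 2.99).

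In macrophage-like barcodes Ccl6 and Ccl4, CC ligands of the chromosome 11 cluster, had more UMIs than any other member in both libraries. Ccl6 was at 767 CPM in WT (633 UMIs) and 953 CPM in HKO (1241 UMIs), and the ratio was 1.24 (1.13 to 1.37). Ccl4 was at 459 CPM in WT and 883 CPM in HKO (1.92, 1.71 to 2.16), and Ccl9, like Ccl6 a CCR1 ligand of the mouse, was at 173 CPM and 249 CPM (1.44, 1.18 to 1.77). All 3 were higher in HKO as measured. After subtraction of free RNA the ratio of Ccl6 was 0.657 and that of Ccl9 0.844, so the direction of both turned, and that of Ccl4 was 1.02. Ccl24, a CCR3 ligand known as eotaxin-2, was at 52.1 CPM in WT and 121 CPM in HKO (2.31, 1.64 to 3.32), and 1.22-fold higher after subtraction. Less abundant members with the same top class were Ccl8 at 4.85 and 16.1 CPM and Ccl12 at 7.27 and 17.7 CPM. Cxcl16, the membrane-bound ligand of CXCR6, had its top class in mixed endothelial and myeloid barcodes, at 288 CPM in WT and 241 CPM in HKO (0.836, 0.620 to 1.14). In macrophage-like barcodes it was at 147 CPM in WT and 213 CPM in HKO (1.46, 1.17 to 1.82), but at 0.773 of the WT level after subtraction. Ccl7, a CCR2 ligand, had 0 UMIs in WT and 34 in HKO in the mixed endothelial and myeloid class, from 13 and 50 barcodes. Set against 3 counts in WT, its ratio was 5.42, which is a point value and no bound.

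The macrophage-like class itself was not the same mixture in the 2 libraries. Sub-cluster 3, deep and led by Mmp12, Cd5l and Gpnmb among others, held 18 of 97 WT and 93 of 227 HKO barcodes. Sub-cluster 4, shallow and with Wfdc17, Aif1 and Tyrobp among its leading genes, held 69 and 103, and sub-cluster 11 the other 10 and 31. Within sub-cluster 3, Ccl6 was at 1507 CPM in WT and 1145 CPM in HKO, so that it was lower in HKO (0.760, 0.684 to 0.845), while Cxcl16 (1.08, 0.848 to 1.39) and Ccl4 (1.11, 0.983 to 1.26) did not differ beyond counting error. Cxcl2 (1.57, 1.29 to 1.91) and Ccl24 (1.66, 1.10 to 2.60) were higher in HKO there as well. In sub-cluster 4 Ccl6 was instead higher in HKO, at 221 and 429 CPM (1.94, 1.44 to 2.61). The share of sub-clusters thus moved with these ratios, and its part in them was not tested.

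Ccl5 had the highest ratio in macrophage-like barcodes among members with at least 10 UMIs and with UMIs in both libraries. WT held 7 UMIs (8.48 CPM) and HKO 324 UMIs (249 CPM), a ratio of 29.3 (14.1 to 73.5). The HKO UMIs came from 39 of 227 barcodes, and 1 barcode held 85 of them. Free RNA accounted for 6.70 of the UMIs in WT and 9.05 of those in HKO. Without the highest barcode of each library the ratio was 30.4 (12.8 to 94.5). Ccl5 was also higher in HKO in monocyte and dendritic-like barcodes, at 176 CPM in WT and 546 CPM in HKO, although 1 barcode held 48 of the 59 WT UMIs and 1 held 92 of the 223 HKO UMIs. Without these barcodes the ratio was 9.59 (5.19 to 19.7). Markers of T cells moved the same way. The 12 T markers summed to 7 UMIs (8.48 CPM) in macrophage-like barcodes of WT, with 7 of the 12 at 0, Cd3e and Trac among them, and to 149 UMIs (114 CPM) in HKO, with none at 0. In monocyte and dendritic-like barcodes they summed to 50.7 and 132 CPM, against 2141 and 3060 CPM in T and NK-like barcodes. The part of T cell RNA in these Ccl5 levels was not tested. After thinning to 1000 UMIs, 1.03% of WT and 8.63% of HKO macrophage-like barcodes held a Ccl5 UMI.

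Ccl2, the main CCR2 ligand and the chemokine that draws monocytes, depended on few barcodes. Its top class was the mixed cholangiocyte and endothelial class, with 162 UMIs in WT (1188 CPM) and 0 in HKO. All 162 lay in 2 of 7 barcodes. Set against 3 counts in HKO, the ratio was 0.00929, which is a point value and no bound. In macrophage-like barcodes Ccl2 was at 165 CPM in WT and 68.3 CPM in HKO, and the ratio was 0.415 (0.314 to 0.546), or 0.220 after subtraction of free RNA. In WT 1 barcode held 113 of the 136 UMIs, and without the highest barcode of each library the ratio was 2.21 (1.38 to 3.68), which turned its direction.

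The CXCR2 ligands Cxcl1 and Cxcl2, which draw neutrophils, are neighbours on chromosome 5. Cxcl2 was at 323 CPM (5 UMIs) in neutrophil-like barcodes of WT and at 1962 CPM (107 UMIs) in HKO, from 3 and 29 barcodes. In macrophage-like barcodes it was at 170 CPM in WT and 458 CPM in HKO (2.70, 2.24 to 3.27), and 1.44-fold higher after subtraction of free RNA. In monocyte and dendritic-like barcodes it was at 391 and 421 CPM (1.08, 0.852 to 1.36), and after subtraction the ratio was 0.945. Cxcl1 was at 65.4 CPM in WT (54 UMIs) and 53.0 CPM in HKO (69 UMIs) in macrophage-like barcodes, a ratio of 0.809 (0.559 to 1.18), or 0.629 after subtraction. It was at 59.4 CPM in WT and 59.5 CPM in HKO in hepatocyte-like barcodes, with 2913 and 1564 UMIs. Its top class, mixed myeloid and stellate, rested on 1 UMI in WT and 14 in HKO, 11 of them in 1 barcode. Cxcl3 and Cxcl5, which are further CXCR2 ligands of this cluster, had 3 and 2 UMIs in the whole WT library and 3 and 6 in the HKO library.

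The CXCR3 ligands Cxcl9 and Cxcl10, which interferon-γ is known to induce, are neighbours too. Cxcl9 had its top class in endothelial-like barcodes, at 276 CPM in WT (237 to 319) and 236 CPM in HKO (200 to 277), and the ratio was 0.856 (0.685 to 1.07). This interval included 1, but after subtraction of free RNA the ratio was 0.653, which lies below it. Without the highest barcode of each library, which in WT held 43 of the 184 UMIs, the ratio was instead 1.03 (0.805 to 1.31). A Cxcl9 UMI was found in 38.7% of WT and 30.6% of HKO endothelial-like barcodes. After thinning the shares were 14.3% and 15.7%, against 2.67% and 1.57% in barcodes of free RNA depth. In macrophage-like barcodes Cxcl9 was at 33.9 CPM in WT and 165 CPM in HKO (4.86, 3.27 to 7.49), and 61 of the 215 HKO UMIs lay in 1 barcode. The 17 endothelial markers, all of them detected, summed to 668 and 717 CPM there (1.07, 0.966 to 1.2), against 10310 and 14700 CPM in endothelial-like barcodes. Without the highest barcode of each library the ratio was 6.91 (4.00 to 12.9). In the mixed endothelial and myeloid class Cxcl9 was instead lower in HKO, at 301 and 107 CPM (0.356, 0.246 to 0.511). Cxcl10 was at 183 CPM in WT and 167 CPM in HKO in that class, its top class (0.915, 0.631 to 1.34). In endothelial-like barcodes Cxcl10 was at 76.5 and 103 CPM, with an interval of the ratio from 0.919 to 1.98.

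The 250 bases before the start sites of these 4 genes are printed because they are well-counted members in neighbouring pairs. Capitals mark matches to GGGANNNNCC, a form of the κB motif, or to GAAA followed, after any 2 bases, by GAAA, a form of the interferon-stimulated response element (ISRE), on either strand and with overlapping matches joined. The sequences are from RefSeq (GRCm38.p6).
Cxcl1, chr5:90890995-90891244, plus strand: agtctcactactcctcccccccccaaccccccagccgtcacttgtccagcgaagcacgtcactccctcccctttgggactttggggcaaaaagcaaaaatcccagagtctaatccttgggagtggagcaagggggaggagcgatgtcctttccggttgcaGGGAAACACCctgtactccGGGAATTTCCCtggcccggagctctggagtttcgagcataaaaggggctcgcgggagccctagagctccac
Cxcl2, chr5:90903649-90903898, plus strand: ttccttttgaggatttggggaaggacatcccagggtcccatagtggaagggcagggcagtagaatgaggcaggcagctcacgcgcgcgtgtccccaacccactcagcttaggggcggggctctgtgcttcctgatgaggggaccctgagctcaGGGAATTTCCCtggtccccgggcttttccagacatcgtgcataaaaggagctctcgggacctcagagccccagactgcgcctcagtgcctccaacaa
Cxcl9, chr5:92328080-92328329, minus strand: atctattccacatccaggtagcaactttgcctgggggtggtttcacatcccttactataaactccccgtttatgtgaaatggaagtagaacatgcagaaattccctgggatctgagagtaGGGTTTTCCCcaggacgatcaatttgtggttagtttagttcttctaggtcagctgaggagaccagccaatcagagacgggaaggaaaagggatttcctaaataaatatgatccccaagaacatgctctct
Cxcl10, chr5:92348890-92349139, minus strand: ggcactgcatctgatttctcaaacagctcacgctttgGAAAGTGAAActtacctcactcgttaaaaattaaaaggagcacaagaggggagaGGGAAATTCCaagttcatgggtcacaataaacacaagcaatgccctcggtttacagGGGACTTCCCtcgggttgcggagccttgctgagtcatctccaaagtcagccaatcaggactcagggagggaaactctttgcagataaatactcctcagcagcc
All 4 windows held the κB letters, and of them only the Cxcl10 window held the ISRE letters. Among all members 20 of 52 windows (38.5%, from 45 genes) held the κB letters, against 17.6% of all 32851 windows. The ISRE letters were in 3 of 52 (5.77%), against 2.98%.

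Cxcl12, the ligand of CXCR4 and ACKR3, had its highest level in classes with stellate markers, and was at 1276 CPM in WT (224 UMIs) and 1326 CPM in HKO (468 UMIs) in mixed endothelial and stellate barcodes. All 8 WT and all 32 HKO barcodes of this class held it. The ratio was 1.04 (0.884 to 1.22), so the libraries did not differ beyond counting error. By number, more of its UMIs lay in hepatocyte-like barcodes (4700 and 3200), at a far lower level that is given further on. Cxcl14 was at 22.8 CPM in WT and 45.3 CPM in HKO in the mixed endothelial and stellate class, from 4 and 16 UMIs, and at 32.7 and 18.4 CPM in macrophage-like barcodes, from 27 and 24 UMIs. Ccl19, a CCR7 ligand of lymphoid stroma, had 10 UMIs in mixed endothelial and stellate barcodes of HKO and 0 in those of WT. Cxcl13, the CXCR5 ligand that draws B cells, was at 22.4 CPM in WT and 65.2 CPM in HKO in the mixed endothelial, myeloid and stellate class (2.91, 0.926 to 14.7). In HKO 1 barcode held 22 of its 39 UMIs. Of the 2 CCR10 ligands, Ccl28 had 20 and 8 UMIs in the whole libraries. Ccl27a was at 29.3 and 40.5 CPM in its top class, mixed cholangiocyte and endothelial, from 4 and 11 UMIs. It was higher in HKO in hepatocyte-like barcodes, at 16.6 CPM in WT (813 UMIs) and 23.7 CPM in HKO (624 UMIs), and the ratio was 1.43 (1.29 to 1.59). Against barcodes of free RNA depth its level there was 1.02-fold in WT (0.924 to 1.12) and 1.25-fold in HKO (1.06 to 1.48).

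**Figure D3:**
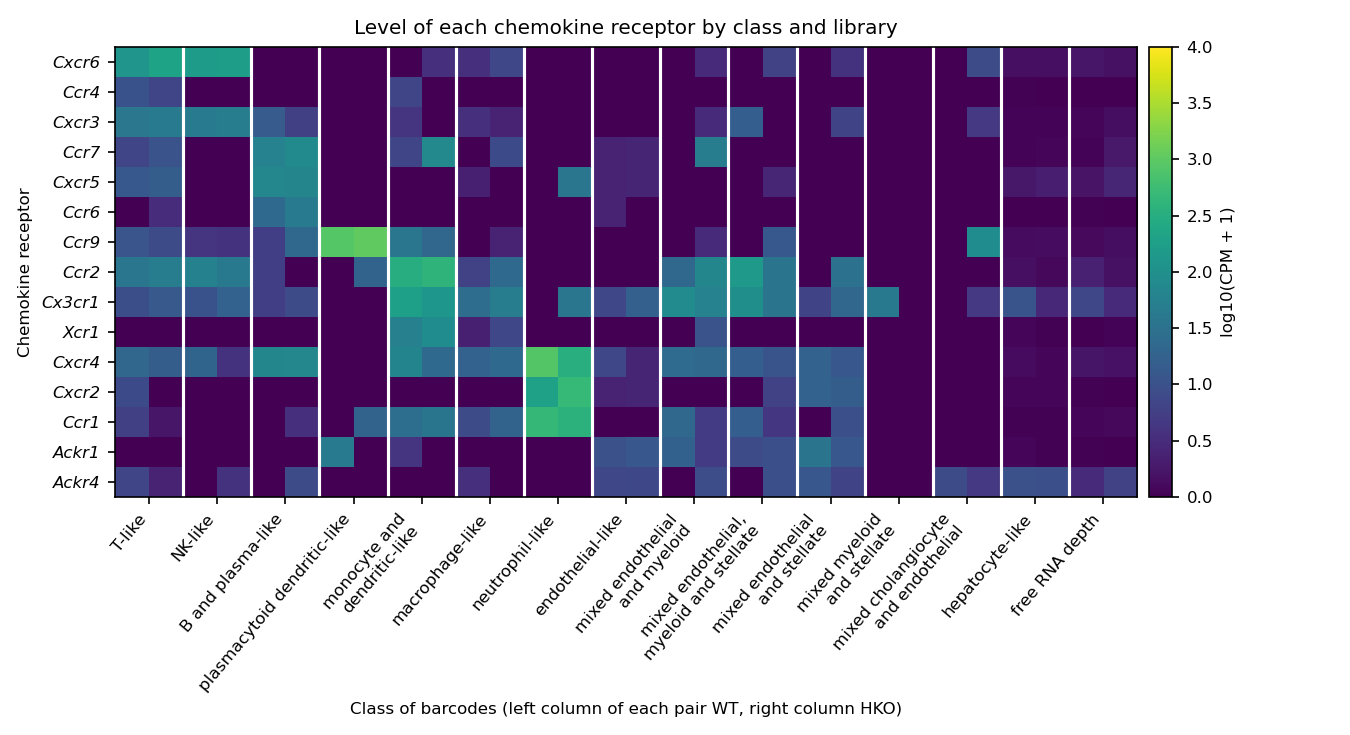
Level of chemokine receptors by class (rows are the receptors with a top class that are reported here, columns are classes, WT and HKO side by side, and color is log10 of CPM plus 1). Ccr9 is highest in plasmacytoid dendritic-like barcodes, and Ccr2 and Cx3cr1 are highest in monocyte and dendritic-like barcodes.

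Among the receptors, Ccr2, the receptor of inflammatory monocytes, was at 313 CPM in WT (105 UMIs) and 401 CPM in HKO (164 UMIs) in monocyte and dendritic-like barcodes, with an interval of the ratio (0.996 to 1.65) that reached 1. Without the highest barcode of each library the ratio was 1.32 (1.01 to 1.73), so 1 barcode per library decides whether Ccr2 differs beyond counting error. Cx3cr1, the fractalkine receptor of patrolling monocytes, was at 182 and 127 CPM in the same class (0.699, 0.473 to 1.03), with an interval that included 1. Xcr1, which marks cross-presenting dendritic cells, was at 53.7 CPM and 88.1 CPM, and 16 of its 18 WT UMIs lay in 1 barcode. Ccr7, which guides migrating dendritic and naive lymphoid cells, was found in 2 WT and 8 HKO barcodes of this class, at 5.97 and 75.8 CPM.

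Cxcr6 and Cxcr3 are receptors of liver-resident and effector T cells. Cxcr6 was at 120 CPM in WT (98.3 to 146; 104 UMIs) and 211 CPM in HKO (187 to 237; 283 UMIs) in T-like barcodes, a ratio of 1.76 (1.40 to 2.22). In NK-like barcodes it was at 164 and 169 CPM (1.03, 0.698 to 1.52). After thinning, 10.6% of WT and 16.1% of HKO T and NK-like barcodes held it, against 0.101% and 0.0280% of barcodes of free RNA depth. Cxcr3 was at 43.4 and 48.7 CPM in NK-like barcodes, from 14 and 17 UMIs, and at 38.2 and 45.6 CPM in T-like ones (1.19, 0.769 to 1.88). After subtraction of free RNA the ratio of Cxcr3 was 0.871 in NK-like and 0.857 in T-like barcodes, so its direction turned in both. Ccr4 was at 9.25 and 5.98 CPM in T-like barcodes from 8 UMIs in each library. Of these 3 receptors only Cxcr6 differed between the libraries beyond counting error, in T-like barcodes, and after subtraction of free RNA its ratio there was 1.27.

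B and plasma-like barcodes held the receptors of B cell follicles and lymphoid homing. Ccr7 was at 57.6 CPM in WT and 77.2 CPM in HKO. Cxcr5 was at 70.9 and 65.1 CPM, and Ccr6, the CCL20 receptor, at 22.2 and 45.8 CPM. All 3 intervals of the ratio included 1. Ccr9, the receptor of the thymic and gut chemokine CCL25, was at 868 CPM in WT (20 UMIs) and 1071 CPM in HKO (60 UMIs) in plasmacytoid dendritic-like barcodes, which in WT were 3, with 18 of the UMIs in 1 of them. The neutrophil receptors Cxcr2, Ccr1 and Cxcr4 had 3, 7 and 13 UMIs in the 3 WT neutrophil-like barcodes and 26, 20 and 18 in the 29 of HKO. Values for these small classes thus rest on few barcodes.

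The atypical receptors were low. Ackr1, known from venular endothelium, was at 34.2 and 11.3 CPM in mixed endothelial and stellate barcodes, from 6 and 4 UMIs. Ackr2, which removes inflammatory CC chemokines, was at 7.50 and 11.1 CPM in endothelial-like barcodes, from 5 and 7 UMIs. Ackr4, which removes CCL19, CCL21 and CCL25, was at 8.73 CPM in WT (428 UMIs) and 8.60 CPM in HKO (226 UMIs) in hepatocyte-like barcodes, a ratio of 0.985 (0.835 to 1.16). Its gene (chr9:104084157-104126933, minus strand) is overlapped on the other strand by Acad11, a fatty acid oxidation enzyme. Whether the counting used the strand is not given in the sources used here.

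Hepatocyte-like barcodes were set against barcodes of free RNA depth in the same library, since Alb did not separate them. Of 27 members compared, 3 were above the free RNA level with an interval over 1 in both libraries. The same comparison was not made over all genes, so the numbers of members above and below have no background. Ackr4 was 4.07-fold above it in WT (3.30 to 5.06) and 1.74-fold in HKO (1.28 to 2.42). Cxcl1 was 1.26-fold above in WT (1.2 to 1.33) and 1.66-fold in HKO (1.48 to 1.86). Cxcl9 was 1.27-fold above in WT (1.19 to 1.36) and 2.58-fold in HKO (2.16 to 3.11), with 317 of its 924 HKO and 243 of its 1847 WT UMIs in 1 barcode each. Another 5 were below the free RNA level in both, among them Ccl4, Ccl5, Ccl6 and Cxcl16, which have their top classes among immune or mixed barcodes. Cxcl12, at 95.9 CPM in WT and 122 CPM in HKO, was on different sides of it, at 0.903 in WT (0.869 to 0.939) and 1.21 in HKO (1.13 to 1.30). These shares of free RNA set a limit on what the counts of hepatocyte-like barcodes show of hepatocytes themselves.

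**Figure D4:**
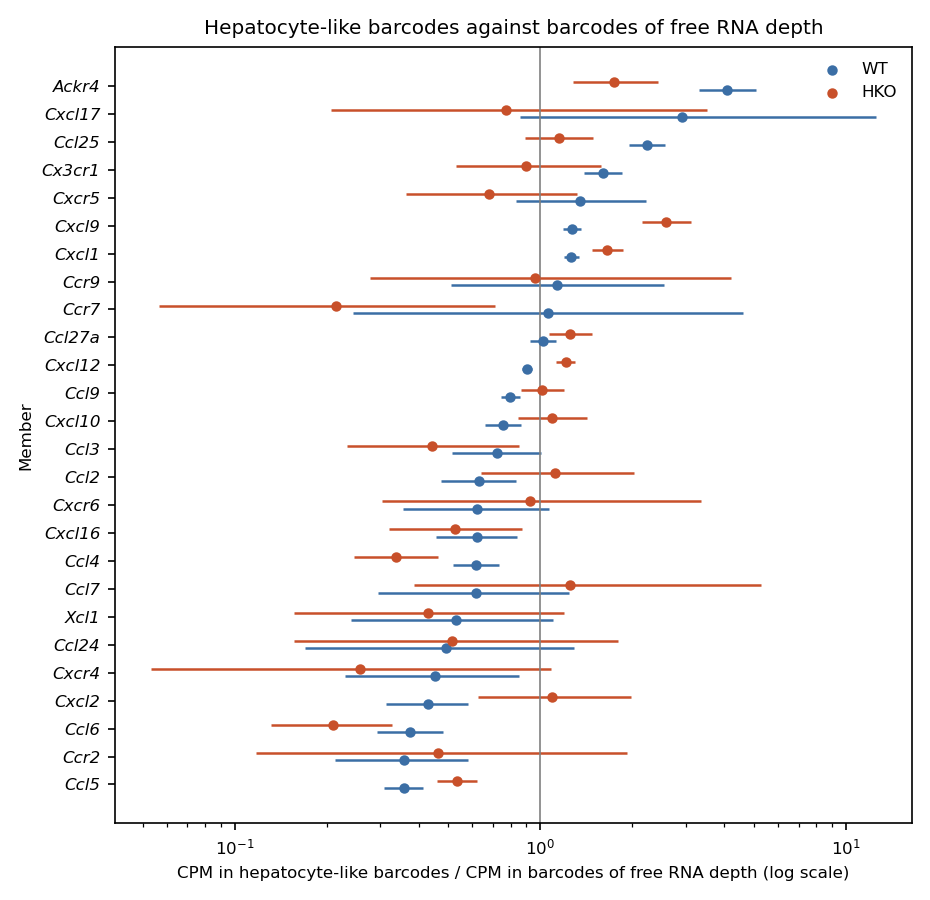
Level of the members reported here in hepatocyte-like barcodes over that in barcodes of free RNA depth of the same library (x axis, ratio on a log scale; points are WT and HKO, bars are exact 95% intervals). Ackr4, Cxcl1 and Cxcl9 lie to the right of 1 in both libraries, and Ccl6 and Ccl5 to the left.

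Between the libraries, hepatocyte-like barcodes had a summed ligand level of 276 CPM in WT and 309 CPM in HKO (1.12, 1.09 to 1.15) and a summed receptor level of 23.1 and 14.6 CPM (0.632, 0.561 to 0.710). Cx3cr1 held 490 of the 1134 receptor UMIs in WT and 49 of the 384 in HKO, and without it the receptor sums were 13.1 and 12.7 CPM (0.970, 0.848 to 1.11). Of 32 members with at least 10 UMIs over both libraries, 2 were at least 2-fold higher in HKO (Ccl5 and Ccl24), where the background over all 15687 genes was 4.81%, and 4 were at least 2-fold lower (Cx3cr1, Ackr1, Ccr2 and Cxcr4), where it was 4.3%. The median log2 ratio of the members was 0.16, and that of all genes -0.0076. Ccl5 had the highest ratio, 3.34, at 4.90 CPM in WT and 16.4 CPM in HKO. It was below the free RNA level in both libraries, and that level was itself higher in HKO (13.7 and 30.7 CPM). Cx3cr1 had the lowest ratio, 0.187 (0.136 to 0.251), at 10.0 CPM in WT (490 UMIs) and 1.86 CPM in HKO (49 UMIs). Barcodes of free RNA depth held Cx3cr1 at 6.22 CPM in WT and 2.07 CPM in HKO, so the difference was present there too. The annotated span of Cx3cr1 is long (chr9:119901616-120069879, minus strand) and covers Csrnp1, Gorasp1 and Xirp1 on the same strand, so its UMIs in these barcodes may include reads of other genes. Of the members with a miR-33 seed match, Cxcl12 had a ratio of 1.27 (1.21 to 1.33) and Cxcl9 one of 0.933 (0.861 to 1.01) in hepatocyte-like barcodes. Without the highest barcode of each library the Cxcl9 ratio was 0.706 (0.642 to 0.775), so 1 barcode decides whether it differs beyond counting error.

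In T and NK-like barcodes the summed ligand level was 4896 CPM in WT and 8064 CPM in HKO, and the ratio was 1.65 (1.60 to 1.70), and most of the UMIs were Ccl5. Without Ccl5 the ratio was 1.18 (1.10 to 1.28). After subtraction of free RNA the ratio of all ligands was 1.23. The summed receptor level was 497 CPM in WT and 671 CPM in HKO (1.35, 1.22 to 1.49), and after subtraction the ratio was 1.00, so no difference remained. Of 23 members with at least 10 UMIs, 1 was at least 2-fold higher in HKO (background 5.62% of 11481 genes) and 3 at least 2-fold lower (background 7.81%). The median log2 ratio was 0.22 over the members and 0.057 over all genes. With free RNA subtracted it was -0.066 over the members, so its direction turned, and -0.0042 over all genes. Of 22 members, 1 was then at least 2-fold higher (Ccl1) and 3 at least 2-fold lower (Cxcr4, Ccl9 and Ccl6). Over all 10937 genes with free RNA subtracted, 1198 were higher and 1029 lower. As measured, the 1 higher member was Ccl1, carried by a single barcode, and the 3 lower members were Ccl6, Ccl9 and Cxcl9. Ccl6 had 54 UMIs in WT and 4 in HKO (0.0521), with 29 of the WT UMIs in 1 barcode. Ccl9 had 46 and 14 UMIs (0.214), with 23 of those in WT in 1 barcode. For Cxcl9 most WT UMIs were accounted for by free RNA, and after its subtraction 1.84 of 19 were left.

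Macrophage-like barcodes had the largest number of members past 2-fold of the 4 classes compared. Of 27 members, 14 were at least 2-fold higher in HKO (background 12.8% of 10639 genes) and 1 at least 2-fold lower (background 11.4%). The higher ones included Ccl5, Ccl8, Ccl12, Ccl22, Ccl24, Ccl25, Cxcl2, Cxcl9, Cxcl10, Cxcl13, Ccr1, Ccr2 and Cxcr6, and the lower one was Ccl2. The median log2 ratio was 1.21 over the members and 0.17 over all genes. After subtraction of free RNA, 5 of 26 members were at least 2-fold higher (Cxcl9, Cxcl13, Ccl25, Ccr2 and Ccl5, background 16.2% of 10178 genes) and 3 at least 2-fold lower (Cxcl12, Ccl2 and Cxcl14, background 11.5%). The median log2 ratio was then 0.30 over the members and 0.019 over all genes. Ccl22, a CCR4 ligand, had 0 UMIs in WT and 16 in HKO, 15 of them in 1 barcode. Set against 3 counts in WT, its ratio was 3.38, which is a point value and no bound. The summed ligand level was 2366 CPM in WT and 3909 CPM in HKO (1.65, 1.57 to 1.74). After subtraction the ratio was 0.925, so its direction turned. The summed receptor level was 202 and 455 CPM (2.25, 1.89 to 2.69) and 1.24-fold higher in HKO after subtraction.

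In endothelial-like barcodes the sums as measured did not differ beyond counting error. The summed ligand level was 618 CPM in WT and 629 CPM in HKO (1.02, 0.885 to 1.17), and the summed receptor level 48.0 and 53.9 CPM (1.12, 0.672 to 1.88). After subtraction of free RNA the ratios were 0.847 for ligands, below the interval as measured, and 0.895 for receptors. Of 13 members, 2 were at least 2-fold higher in HKO, Ccl4 and Cx3cr1 (background 5.88% of 9770 genes), and 1 at least 2-fold lower, Ccl9 (background 7.2%). All 3 had 20 UMIs or fewer over both libraries. The median log2 ratio was 0.30 over the members and 0.079 over all genes. After subtraction it was -0.043 over the members, so its direction turned, and 0.028 over all genes. Of 12 members, 2 were then at least 2-fold higher (Cx3cr1 and Ccl4) and 2 at least 2-fold lower (Cxcl1 and Ccl9). Over all 9356 genes after subtraction, 1125 were higher and 882 lower. Ccl4 had 3 UMIs in WT and 12 in HKO, 6 of them in 1 barcode, and Ccl9 had 16 and 4 UMIs, of which free RNA accounted for 10.7 and 3.70.

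**Figure D5:**
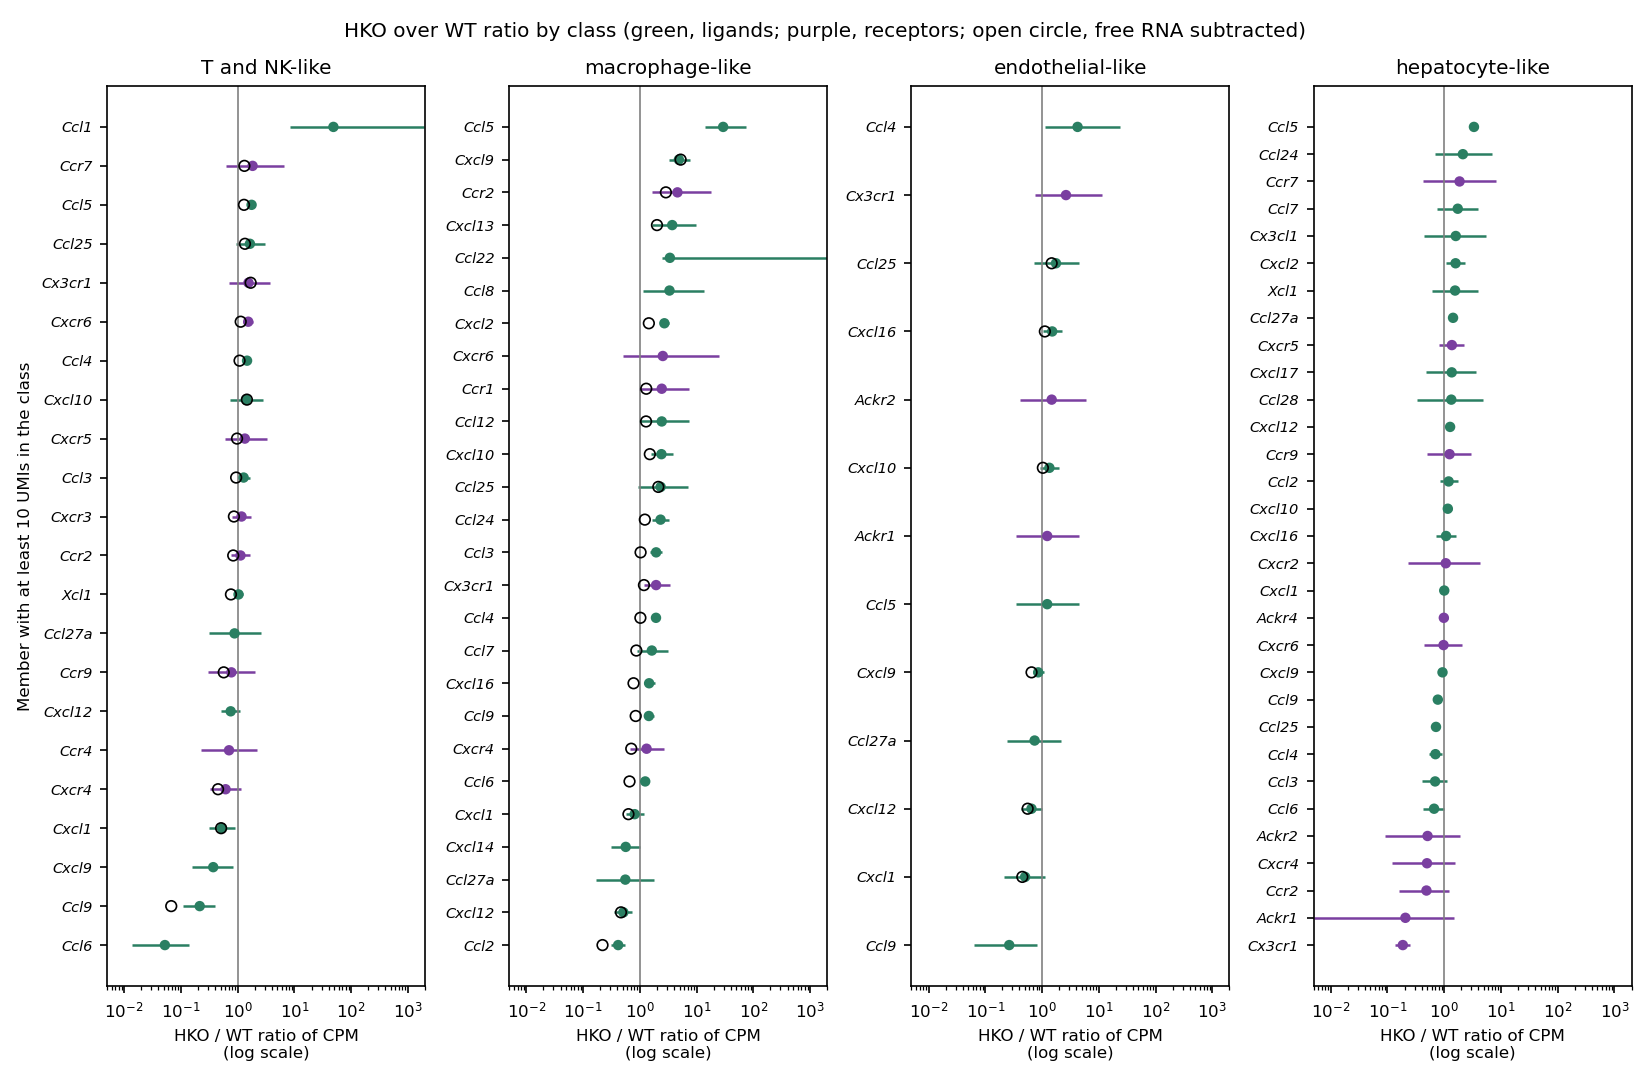
Ratio of HKO to WT CPM for each member reported here with at least 10 UMIs, by class (x axis, ratio on a log scale; green points are ligands, purple points receptors, bars exact 95% intervals, and open circles the ratio after subtraction of free RNA where it could be given). Points of the macrophage-like class lie mostly to the right of 1, with Ccl5 farthest, and those of the endothelial-like class on both sides.

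Ligands were then set beside receptors in 36 known pairs. Both partners had a top class in 20 pairs. In 3 of these the class was the same, among them Ccl3 with Ccr1 and Cxcl2 with Cxcr2 in neutrophil-like barcodes. The receiver was neutrophil-like in 7 pairs, T-like in 5, monocyte and dendritic-like in 4, NK-like in 2, B and plasma-like in 1 and plasmacytoid dendritic-like in 1. Cxcl9 in endothelial-like barcodes had Cxcr3 in NK-like barcodes as its partner, and Cxcl16 in mixed endothelial and myeloid barcodes had Cxcr6 in T-like barcodes. Xcl1 in NK-like barcodes had Xcr1 in monocyte and dendritic-like barcodes as its partner. The other 16 pairs could not be placed, among them Cx3cl1 with Cx3cr1, Ccl24 with Ccr3, Ccl1 with Ccr8, and Cxcl12 with Ackr3. Cxcl11, a further CXCR3 ligand, was not analysed here. These placements describe RNA levels, and neither secretion nor contact was measured.

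Other genes of chemotaxis were taken from 3 lists, on receptor signalling (27 genes), adhesion and other attractants (30) and inducers and inflammatory signals (24). In macrophage-like barcodes 22 of the 72 genes with at least 10 UMIs were at least 2-fold higher in HKO and 3 lower, against the background given above, and after subtraction of free RNA 3 were higher and 2 lower. Il6, the gene of interleukin-6, was at 9 UMIs in WT and 42 in HKO there (2.96, 1.42 to 6.91), and Il1r1, a receptor of interleukin-1, at 43 and 17 (0.250, 0.134 to 0.448). Among T and NK-like barcodes 2 of 65 genes were higher (background 5.62%) and 3 lower (7.81%), and Il6 there had 12 UMIs in WT and 1 in HKO (0.0586, 0.00137 to 0.396), the other direction from that in macrophage-like barcodes. Ifng, the gene of interferon-γ, which induces Cxcl9 and Cxcl10, had 57 and 153 UMIs in these barcodes (1.89, 1.38 to 2.61). In endothelial-like barcodes 4 of 50 were at least 2-fold higher (background 5.88%) and 2 lower (7.2%). Icam1, an adhesion molecule for leukocytes, was not among the 4, at 23 and 41 UMIs (1.88, 1.10 to 3.29). Itga4, of the same list, was at least 2-fold lower, at 17 and 2 UMIs (0.124, 0.0139 to 0.524). In hepatocyte-like barcodes 5 of 68 were higher (background 4.81%) and 2 lower (4.3%). Each gene named here had the highest or lowest ratio of its own list in that class, though not always of all 3 lists. Ratios of these single genes are as measured, without subtraction of free RNA.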

How the data were processed

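As deposited, the values are whole UMI counts for each gene in each barcode, without normalization. The file header names Cell Ranger 7.1.0, and the submitters' processing notes name the mm10 build, Cell Ranger, R 3.0 and Seurat 3. The annotation, the counting of introns and strands, and the way barcodes were chosen are not given in the sources used here. Sequences of the WT barcodes were not used here, so barcodes that the libraries share were not counted.

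Barcodes with at least 500 UMIs, at least 300 genes and at most 50% mitochondrial UMIs were kept. Scrublet (scanpy 1.11.5) marked 0 doublets by its automatic threshold, so the top-scoring 0.8% per 1000 barcodes were left out, 7019 in WT and 2664 in HKO. The other 22601 and 15583 barcodes were clustered together without integration (2000 variable genes, 30 components, 15 neighbours, edges weighted by shared neighbours, Leiden resolution 1.0, igraph 0.11.9, Python 3.11.15). Member genes were kept out of the variable genes. A class needed at least 3 markers of 1 of 16 lists, each in at least 10% of barcodes and 2-fold above the rest, and clusters in which any list other than that of hepatocytes met this were joined for a further round of clustering. Details of the naming and the depth minimum for hepatocyte-like barcodes, 2 times the commonest depth of the library, were set after clusters had been seen, and so were the edge weights, which gave the same clusters under all processor settings tried. The members and lists were chosen with earlier results of these data known.

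UMIs were summed per class and library and given as CPM of the class total, with exact Poisson intervals (scipy 1.17.1). Shares of barcodes have Clopper-Pearson intervals, and ratios are HKO over WT with an interval conditional on the summed count. A ratio against 0 was computed against 3 counts. Free RNA was estimated from barcodes of free RNA depth of the same library, scaled by Alb. Ratios after its subtraction have no interval, and are left out where fewer than 3 UMIs remained in a library. Counts past 2-fold after subtraction instead needed more than 3 UMIs left in only 1 library, and values not above 0 were set to 3. They thus hold members without a given ratio. Among these are Ccl5 in macrophage-like, Ccl6 in T and NK-like, and Ccl4, Cx3cr1 and Ccl9 in endothelial-like barcodes. In hepatocyte-like barcodes the estimate exceeded or approached all UMIs (105% in WT, 91.1% in HKO), so nothing was subtracted there. Members past 2-fold were counted in classes with at least 50 barcodes in both libraries, T-like and NK-like ones together. Ratios of single members are given in smaller classes too. Scripts were tested on simulated counts.

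Members given with values were the 12 ligands and 12 receptors with the most UMIs in their top class, their partners in a list of 36 pairs, and the members with the highest and lowest ratio in each class compared. A receptor that this rule names is not reported here, and sums and counts over members hold it. Other members named were chosen after their values were seen. Gene positions and 3′UTRs are from the GENCODE annotation of GRCm38, and miRNA and promoter sequences from RefSeq (GRCm38.p6).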

Additional observations from a re-analysis of the deposited data

How the results depend on the processing

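No paired analysis was possible because each genotype had a single library. The alternatives were planned ones: free RNA subtracted, doublets kept, a minimum of 1000 UMIs per barcode, thinning to 1000 UMIs, equal weight of barcodes, the highest barcode left out, member genes used in clustering, Leiden resolution 2.0, at most 20% mitochondrial UMIs, and another UMI minimum per gene. Leaving a member out of a sum was added after the values were seen. For sums and counts over members, 103 values stayed within the counting interval of the value given (counts within 1.5-fold), 31 moved and 1 turned direction. For the members named by rule, each in its top class, 157 stayed, 29 moved and 3 turned. Ccl5 in T-like barcodes moved the most often, in 5 of 9, with ratios from 1.27 with free RNA subtracted to 1.89 with thinning, all over 1. Without Ccl5 the ligand ratio in T and NK-like barcodes was 1.18, and without Cx3cr1 the receptor ratio in hepatocyte-like ones was 0.970.

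With free RNA subtracted, the ligand ratio was 1.23 in T and NK-like, 0.847 in endothelial-like and 0.925 in macrophage-like barcodes, where it turned. The receptor ratio was 1.00 in T and NK-like and 1.24 in macrophage-like barcodes. Members past 2-fold in macrophage-like barcodes numbered 8, and other chemotaxis genes 5 there and 10 in endothelial-like ones. The ratios of Ccl6 (0.657) and Ccl9 (0.844) in macrophage-like barcodes turned. Nothing was subtracted in hepatocyte-like barcodes. With thinning, the ligand ratio was 1.74 in T and NK-like, 2.21 in macrophage-like and 1.24 in hepatocyte-like barcodes, where the receptor ratio was 0.453. Members past 2-fold then numbered 1 in endothelial-like and 9 in macrophage-like barcodes, and the Ccl4 ratio in neutrophil-like ones turned to 0.75. The macrophage-like ligand ratio was 2.00 with equal weight, 1.85 without the highest barcode, 1.55 with doublets kept and 1.34 at resolution 2.0, and the receptor ratio there 1.80 at resolution 2.0 and 1.88 with members in the clustering. Members past 2-fold numbered 6 in endothelial-like and 10 in hepatocyte-like barcodes with equal weight, and 5 in endothelial-like ones with members in the clustering. A minimum of 30 UMIs left 0 in endothelial-like, 9 in macrophage-like and 2 in hepatocyte-like barcodes, and 1 UMI gave 14 in T and NK-like, 11 in endothelial-like and 14 in hepatocyte-like barcodes. Shares over all genes were computed only at the minimum of 10 UMIs, as measured and after subtraction. Numbers of members past 2-fold under the other alternatives thus have no background and are no result about the members. With doublets kept, 25 top classes were as given. Except for free RNA, thinning and the UMI minimum, whose construction changes the counts compared, the cause was not tested.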
